A study of Mus musculus with 2 samples.

Results

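Heat shock proteins and their co-chaperones were followed in the cochlea, the auditory organ of the inner ear, of mice after noise trauma. The set holds 38 genes, taken by name from the array design, among 26533 genes measured on both arrays. All 38 were measured, by 80 of their 81 probes. Most of their products work in the cytosol and nucleus, but Hspa9, Hspd1 and Hspe1 encode mitochondrial chaperones and Hspa13 a microsomal HSP70 relative, so the set is wider than a purely cytosolic one. Both samples were total cochlear RNA of female C57BL/6 mice aged 7 weeks. The noise sample came from cochleae dissected 3 hours after a 2-hour exposure to intense noise, and the baseline sample from mice with no exposure. Each sample was hybridised to 1 array, so no value has a replicate and no test across animals was possible. How many mice gave each sample is not stated in the labels.

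Heat shock proteins bind unfolded or aggregating proteins and return them to a folded state or pass them on for degradation. HSP70 works with HSP40 partners, which bring it substrates, and with exchange factors such as the HSP110 and BAG proteins, which release nucleotide from it, while HSP90 completes the folding of kinases and steroid receptors with its own co-chaperones. The factor HSF1 switches on the inducible members within minutes to hours of heat or proteotoxic stress by binding inverted GAA repeats, called heat shock elements, in their promoters, and in the cochlea induced HSP70 is known for protecting hair cells. The members were therefore split, from textbook knowledge, into 12 inducible genes (Hspa1a, Hspa1b, Hsph1, Hsp90aa1, Dnaja1, Dnajb1, Dnajb4, Hspb1, Hspb8, Cryab, Bag3 and Chordc1) and 26 genes called constitutive here. The split was made with earlier results of these data known. Comparisons of the classes, in promoters or in ratios, therefore describe them and are not independent tests.

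The promoters of both classes were searched for heat shock elements. RefSeq promoter sequences of build GRCm38.p6, from 250 bases before to 50 after the start of a gene, were found for 30 of the 38 members. A pair of inverted units, GAANNTTC or TTCNNGAA, each of which reads the same on both strands, stood in the promoters of 9 of 10 inducible members (90.0%) and of 6 of 20 constitutive members (30%), against 4587 of the 27025 genes in the table (17%). The longer element of 3 units, GAANNTTCNNGAA on either strand, contains the shorter pair. It stood in 5 of 30 member promoters (16.7%) and in 0.662% of all genes in the table. By class, it stood in 2 of 10 inducible (20%) and 3 of 20 constitutive members (15%), so it separated these classes less than the pair did. Of those 3 constitutive members, Hspd1 and Hspe1 share 1 element, and both fall in a broader inducible class of 19 genes, given below. In that class the longer element stood in 4 of 16 promoters (25%) and the pair in 12 of 16 (75%). These are matches of letters, and neither binding nor a role in the cochlea was measured. Hspa1a and Hspa1b, which encode near-identical inducible HSP70 proteins, are shown because their ratios stood together at the upper end of the set. The 250 bases upstream of Hspa1a (chr17:34972157-34972406, minus strand) and of Hspa1b (chr17:34959239-34959488, minus strand) differ at 3 positions, and capitals mark the paired units.
Hspa1a: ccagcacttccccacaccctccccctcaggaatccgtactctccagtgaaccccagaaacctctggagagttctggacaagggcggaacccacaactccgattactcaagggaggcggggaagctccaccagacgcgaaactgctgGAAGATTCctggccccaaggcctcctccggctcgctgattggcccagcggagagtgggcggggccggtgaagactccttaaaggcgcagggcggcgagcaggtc
Hspa1b: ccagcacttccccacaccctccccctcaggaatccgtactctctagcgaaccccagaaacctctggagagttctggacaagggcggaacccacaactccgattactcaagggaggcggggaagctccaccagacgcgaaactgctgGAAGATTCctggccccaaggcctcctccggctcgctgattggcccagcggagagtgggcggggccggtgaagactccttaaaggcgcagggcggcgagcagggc

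The elements of some other members are shown for comparison, again with matched units in capitals. Hspb1 (chr5:135887769-135887918, plus strand) has 2 paired units upstream. The 3-unit element of Dnajb6 (chr5:29735798-29735897, plus strand), and that of Hspe1 (chr1:55088053-55088082, plus strand), lie upstream of the start. That of Chordc1 (chr9:18292259-18292288, plus strand) spans the start. That of Hsph1 (chr5:149636287-149636308, minus strand) begins 36 bases after it, or 15 bases after another listed Hsph1 start. The elements of Hspe1 and Chordc1 are runs of overlapping matches. The Hspe1 element is also the Hspd1 element, since these neighbours are read in opposite directions from there.
Hspb1: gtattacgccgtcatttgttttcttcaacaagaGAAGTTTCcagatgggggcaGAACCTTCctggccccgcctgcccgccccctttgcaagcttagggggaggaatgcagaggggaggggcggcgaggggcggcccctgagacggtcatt
Dnajb6: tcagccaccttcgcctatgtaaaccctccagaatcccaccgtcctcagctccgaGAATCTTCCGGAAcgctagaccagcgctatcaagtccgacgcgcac
Hspe1: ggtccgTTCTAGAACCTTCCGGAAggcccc
Chordc1: accgGAACGTTCGGGAAAATTCCTGAAgca
Hsph1: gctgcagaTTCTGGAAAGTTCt

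The arrays were of like brightness, with 75.3% (noise) and 75.2% (baseline) of probes well above background, and lay on the same slide and scan. Levels below are processed signals divided by the array's own 75th percentile (316 for noise, 278 for baseline), and a log2 ratio is noise minus baseline on that scale, as the median over a gene's measured probes. Different probes of a gene differed in this ratio with an SD of 0.27 over 9350 genes, and the scanner software's error model, in which the proportional part is preset, gave the ratio of a bright probe a standard error of 0.20. Of 12 hair cell markers, 12 were measured, with a median ratio of 0.080, and medians were 0.24 for supporting cell markers (7 of 11 above 0), 0.29 for stria and lateral wall (7 of 11 above 0), -0.036 for spiral ganglion neurons and 0.028 for Schwann cells. Blood and bone marrow markers had a median of 0.025 and osteoblast markers one of 0.083. Markers of 4 other tissues were lower after noise: 20 of 20 skeletal muscle markers were below 0 (median -0.78), as were 9 of 10 adipocyte markers (-1.46), 11 of 11 measured markers of central neurons and glia (-0.83) and 6 of 6 measured pituitary markers (-2.07). The part of these shifts in the members' ratios was not tested.

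No member was past 2-fold in either direction. That size was reached by 0.611% of all measured genes in the upward and by 1.25% in the downward direction. None of the 38 members reached 1.5-fold either, against 3.02% of genes higher and 4.99% lower. The members' ratios ran from -0.33 (Dnajb1) to 0.57 (Hspa1b) with a median of 0.019, beside a median of -0.014 over all genes. Of the 38, 21 were above 0 (55.3%), against 47.5% of all genes. The median size of a member's ratio, without its sign, was 0.14, and that of all genes 0.17. These sizes are not matched for level. Of the members, 22 lay in the brightest of 4 level classes, where the SD of ratios was 0.28 against 0.43 in the dimmest.

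With scaling to the spike-in probes in place of the 75th percentile, the median over all genes became 0.22 and the ratios of the members moved up with it. Of the 17 members below 0, 4 (Dnajb1, Hsph1, Hsf1 and Stip1) were then still below 0, and 4 members (Hspa1b, Hspb8, Hspa1a and Hspb1) were past 1.5-fold. Signs of the other 13 below are therefore relative to the bulk of genes on the array.

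**Figure D1:**
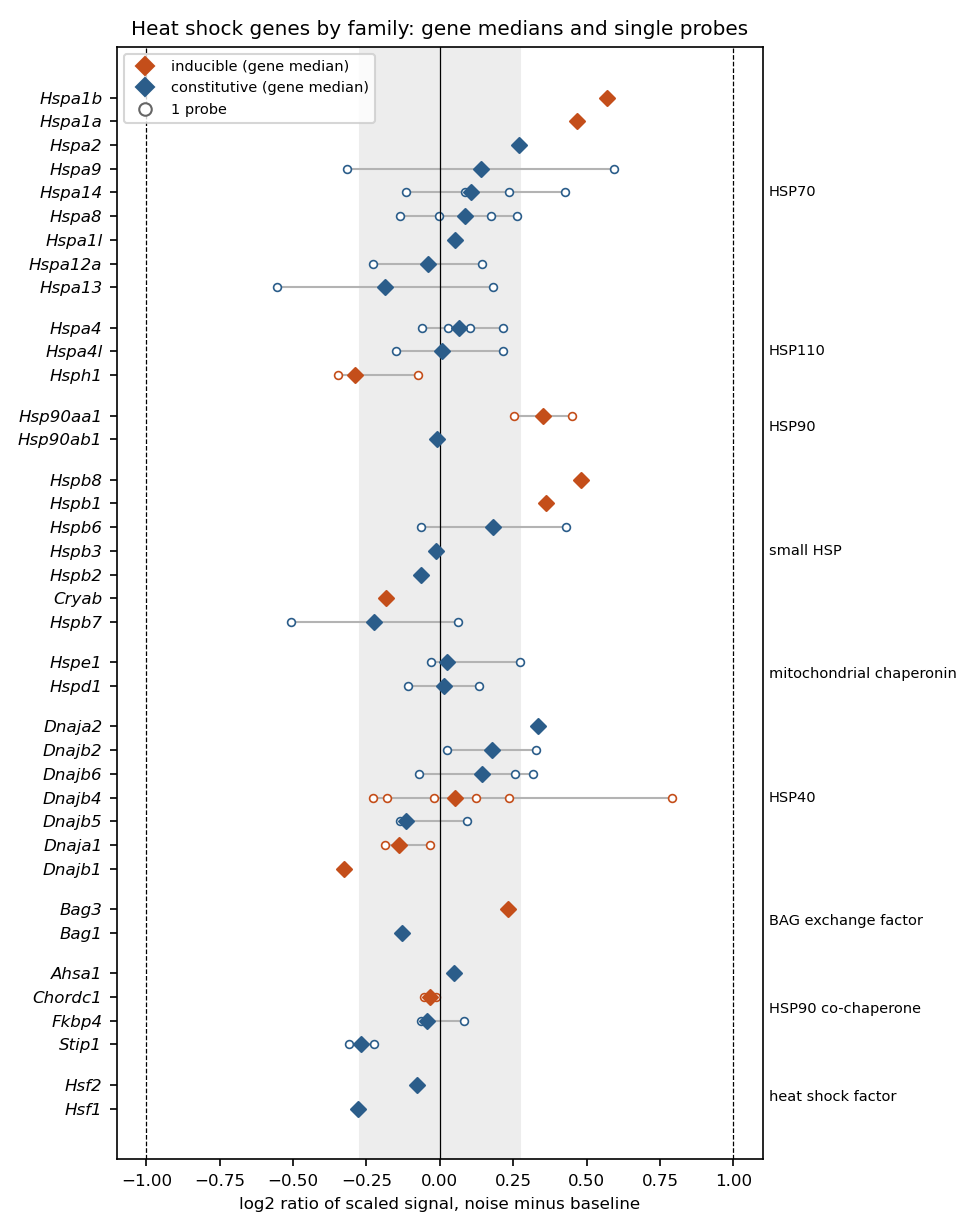
Log2 ratio (noise minus baseline, horizontal axis) of the 38 members by family. Diamonds are gene medians, open circles single probes, the grey band is the SD between probes of a gene (0.27) and the dashed lines mark 2-fold. All medians lie between -0.33 and 0.57, with Hspa1b, Hspb8 and Hspa1a farthest to the right; with spike-in scaling 13 of the 17 members left of 0 move to its right.

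Of the inducible HSP70 genes, Hspa1b was the highest member of the set and Hspa1a came next after the small heat shock protein gene Hspb8. Hspa1b had levels of 1.02 after noise and 0.690 at baseline, a 1.48-fold difference (log2 ratio 0.57, scanner error 0.20). Hspa1a had levels of 2.57 and 1.86, a 1.38-fold difference (0.47, scanner error 0.20). Both were higher after noise, and 95% intervals from the scanner error alone ran from 0.17 to 0.97 for Hspa1b and from 0.068 to 0.87 for Hspa1a; the spread between animals is not part of them. Such an interval of the brightest probe lay wholly above 0 for 6.4% of all measured genes and wholly below for 8.52%, against 4 (Hspa1a, Hspa1b, Hspa9 and Hspb8) and 1 (Hspb7) of the 38 members. The Hspa1a and Hspa1b probes, of 60 bases each, share no run longer than 5 bases. Their first 30 bases are shown because the proteins are near-identical and the probes are not. The Hspa1a probe lies on chromosome 17 from 35106766 to 35106825 and the Hspa1b probe on chromosome 17 from 35093374 to 35093405 (mm9 assembly, per the file headers), a listed span of 32 bases for the second. Each gene had 1 probe, so the highest ratio of the set rests on a probe whose listed span is shorter than its length. The reason for the short span was not examined.
Hspa1a probe: agggaaactaaactgtctttcagttacttt
Hspa1b probe: taatctaagtaggttaaagatggtgtagtc

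The other HSP70 genes were closer to 0. Hspa2, an HSP70 best known from the testis, had levels of 2.98 and 2.47 (0.27). Hspa8, the abundant constitutive HSC70, was at 0.085 over 4 probes that ran from -0.13 to 0.26. Hspa14, which acts at the ribosome, was at 0.11 (5 probes, -0.12 to 0.42), and the testis-rich Hspa1l, which lies 546 bases from Hspa1a in the opposite orientation, was at 0.052 with levels of 0.026 and 0.025. Hspa1l drops out with a stricter filter on dim probes. Hspa12a, a distant relative, was at -0.042 and Hspa13 lowest in the family at -0.19, from probes at -0.55 and 0.18; with the brightest probe alone Hspa13 was at 0.18, Hspa12a at 0.14 and Hspa8 at -0.13. For Hspa9, mitochondrial HSP70, the median of 0.14 joined probes that disagreed, at 0.59 and -0.32. The family median was 0.11, with 7 of 9 genes above 0.

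HSP110 and HSP90 genes each split. Hsph1, the inducible HSP110, had levels of 8.27 after noise and 10.5 at baseline on its brightest probe. Its 3 probes were all lower after noise (-0.35 to -0.075, median -0.29), and it stayed below 0 with spike-in scaling (-0.059). Its constitutive relatives Hspa4 (0.066, 4 probes from -0.062 to 0.22) and Hspa4l (0.0084, 4 probes from -0.15 to 0.22) stood at about 0. Hsp90aa1, the stress-inducible cytosolic HSP90, had levels of 48.3 and 40.5 on its brightest probe, and its measured probes were both higher, at 0.25 and 0.45 (median 0.35, 1.28-fold). The remaining Hsp90aa1 probe was well above background in neither sample. Hsp90ab1, the constitutive form, had levels of 88.9 and 89.4 (-0.0089; 0.22 with spike-in scaling).

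Among small heat shock proteins, which hold unfolding proteins in solution, Hspb8 and Hspb1 were highest. Hspb8, which works with BAG3 in selective autophagy, had levels of 3.39 and 2.43, a 1.40-fold difference (0.48). Hspb1, the mouse HSP25, had levels of 39.5 and 30.7, a 1.29-fold difference (0.36). Cryab, the inducible alpha-B crystallin, lay on the other side with levels of 34.6 and 39.3 (-0.18; 0.047 with spike-in scaling). Hspb6 was at 0.18 from probes at -0.064 and 0.43 (-0.0086 with the normexp background), Hspb3 at -0.014 and Hspb2 at -0.064, and Hspb7 was lowest at -0.22, from probes at -0.51 and 0.061. Over all 7 small heat shock genes the median was -0.014, with 4 below 0 and Hspb8, Hspb1 and Hspb6 above. Hspb8 and Hspb1 were left out of a group called rich in striated muscle here, which held Hspb6, Hspb3, Hspb2, Hspb7 and Cryab. Their median was -0.064, with 4 of 5 below 0 (all but Hspb6; with spike-in scaling Hspb2 was at 0.17, Hspb3 at 0.22, Cryab at 0.047 and Hspb7 at 0.0069), beside the 20 of 20 skeletal muscle markers below 0, whose summed level was 56.3 after noise and 79.6 at baseline. Most of that sum came from 1 gene, Pvalb (42.5 and 54.2), whose cell source in this tissue was not tested. The next brightest marker, Tnnc2, had levels of 4.28 after noise and 7.52 at baseline. The 19 markers without Pvalb summed to 13.8 after noise and 25.4 at baseline. The part of muscle tissue in these 5 values was not tested, and in such bulk RNA fewer cells of a type and less RNA per cell cannot be told apart.

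HSP40 genes, the J-domain partners of HSP70, ran from the highest constitutive member to the lowest of all members. Dnaja2 had levels of 4.55 and 3.61, a 1.26-fold difference (0.33). Dnajb1, the HSP40 that heat induces together with Hspa1a, had levels of 11.4 after noise and 14.3 at baseline (-0.33, scanner error 0.20; -0.096 with spike-in scaling). Dnajb1 thus stood at the opposite end of the set from Hspa1a, by 1 probe on chromosome 8 from 86135660 to 86135719 (mm9). It was also the 1 inducible member with a promoter sequence in which the letter search found no paired unit. Paired units were found for members above 0, such as Hspa1a, and for Hsph1, Dnaja1 and Chordc1, which were below 0. A link between element and ratio was not tested. Dnaja1 had 3 probes between -0.19 and -0.033 (median -0.14; 0.092 with spike-in scaling), Dnajb2 was at 0.18 (0.024 and 0.33) and Dnajb6, a suppressor of protein aggregation, at 0.14 (5 probes, -0.070 to 0.32). Dnajb5 was at -0.11 (3 probes, -0.14 to 0.091), and at 0.091 with the brightest probe or the stricter filter on dim probes. Dnajb4, an inducible member, had a median of 0.052 over 6 probes that ran from -0.23 to 0.79, and -0.020 with the brightest probe. The family median was 0.052, with 4 of 7 genes above 0, and was -0.031 with the normexp background.

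The chaperonins of the mitochondrial matrix, Hspd1 (HSP60) and Hspe1 (HSP10), were at 0.013 and 0.024. Their start sites used in the promoter search flank the shared 3-unit element. Their 2 and 3 probes ran from -0.11 to 0.13 and from -0.031 to 0.27, and with the brightest probe Hspd1 was at -0.11. Bag3, an inducible exchange factor and autophagy adaptor, had levels of 11.2 and 9.53 (0.23), and its constitutive relative Bag1 levels of 24.0 and 26.2 (-0.13; 0.10 with spike-in scaling).

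HSP90 co-chaperones were at or below 0, apart from Ahsa1. Stip1, the adaptor HOP that joins HSP70 to HSP90, was lower by both probes (-0.31 and -0.23, median -0.27; -0.038 with spike-in scaling). Chordc1, an inducible co-chaperone whose start site carries a 3-unit element, was at -0.034 (0.20 with spike-in scaling), with levels of 2.80 and 2.83 on its brightest probe. Fkbp4, the immunophilin FKBP52, was at -0.045 (0.18 with spike-in scaling), and Ahsa1, which stimulates the ATPase of HSP90, at 0.047. Of the factors themselves, Hsf1 had levels of 2.45 and 2.97 (-0.28; -0.047 with spike-in scaling) and Hsf2 levels of 0.762 and 0.805 (-0.078; 0.15 with spike-in scaling). HSF1 protein is activated mainly by release from chaperones and assembly into trimers, which a transcript level does not measure.

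The classes, chosen with earlier results of these data known, were compared by their medians, with no test. The median of the inducible members was 0.14, with 7 of 12 above 0, and that of the constitutive members 0.011, with 14 of 26 above 0. The difference of the medians was 0.13. Without Hspa1a and Hspa1b it was -0.0019, and leaving out any other 2 of the 6 inducible members above their class median gave the same value, so this does not single out the pair. With a broader inducible class of 19 genes, which adds Hspa8, Hspa4l, Hspd1, Hspe1, Fkbp4, Ahsa1 and Stip1, it was 0.033. The SD of the ratios was 0.32 among inducible and 0.15 among constitutive members. Hspa1b, Hspb8, Hspa1a, Hspb1 and Hsp90aa1 exceeded the SD between probes upward and Dnajb1 and Hsph1 downward, joined by constitutive Dnaja2 upward and Hsf1 downward. In all, 6 of 38 members were above and 3 below by that measure, where 13.2% and 17.4% of all genes were. Of those named, Hsp90aa1 had 2 measured probes and Hsph1 3, and the others 1 each, as 17 of the 38 members did. A median over more probes varies less than the value of 1 probe. The part of probe number in these counts and in the SDs of the classes was not tested.

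**Figure D2:**
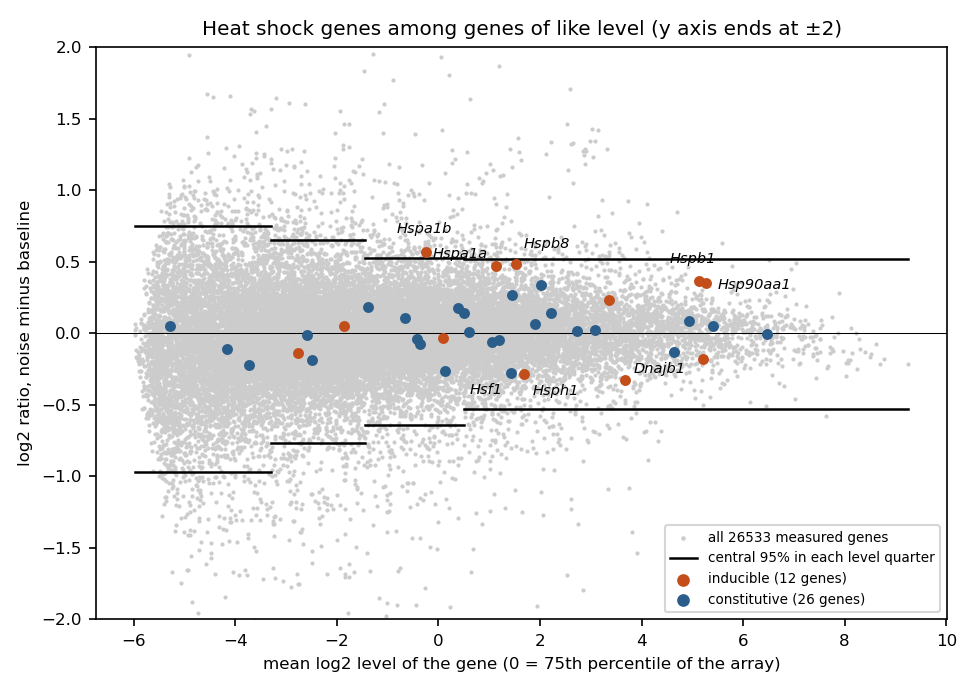
Log2 ratio (vertical axis) against mean log2 level (horizontal axis, 0 is the array's 75th percentile) for all 26533 measured genes in grey and the members in colour. Black lines hold the central 95% of genes in each of 4 level classes; 52 genes lie beyond the axis, and of the members Hspa1b alone lies outside the lines.

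The spread of ratios narrowed with brightness, so members were also set against genes of like level, in 4 classes of equal size. Of the 38 members, 22 lay in the brightest class, where the central 95% of ratios ran from -0.53 to 0.52. Hspa1b lay above the range of its class, at its percentile 98.0, and Hspb8 (96.8), Hspa1a (96.6), Hspb1 (94.2), Hsp90aa1 (93.8) and Dnaja2 (93.1) followed within theirs. At the lower end, Dnajb1 stood at percentile 6.41, Hsph1 at 8.16 and Hsf1 at 8.74. Of the 38 members, 1 lay outside the central range of its class.

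Other chaperone genes were also near 0. Over 65 genes in 6 lists, 31 were above 0 and the median was -0.0076. The CCT chaperonin, which folds actin and tubulin, had 8 of 8 genes between -0.031 (Cct7) and 0.26 (Cct6a), with a median of 0.020. Of the prefoldin genes, whose products feed CCT, Pfdn2 was highest at 0.71, with levels of 2.00 and 1.22, and Pfdn1 lowest at -0.15. Among further co-chaperones of HSP90 and HSP70 the median was -0.090 (0.14 with spike-in scaling), with 7 of 18 above 0. One of them, Fkbp5, which is induced by glucocorticoids, was past 2-fold (1.19, probes from 0.54 to 1.32), and St13, the HSP70 cofactor HIP, was lowest (-0.49, probes at -1.04 and 0.062).

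Further J-domain genes of the cytosol ran from Dnajc6, the neuronal auxilin, at -0.55 to Dnajc7, an HSP70 and HSP90 co-chaperone, at 0.53 by 2 like probes (0.52 and 0.54). Mitochondrial chaperones were at a median of -0.12 (0.11 with spike-in scaling), with 2 of 8 above 0, Clpx, the unfoldase of a matrix protease, at 0.081 and Dnaja3, a mitochondrial HSP40, at -0.39. Of the remaining members of the heat shock families, the endoplasmic reticulum HSP70 Hspa5 was highest at 0.29 and the lens crystallin Cryaa lowest at -1.27, past 2-fold, with dim levels of 0.054 and 0.13. Outside the list of members, 1 of 65 chaperone genes was at least 2-fold higher and 1 at least 2-fold lower.

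**Figure D3:**
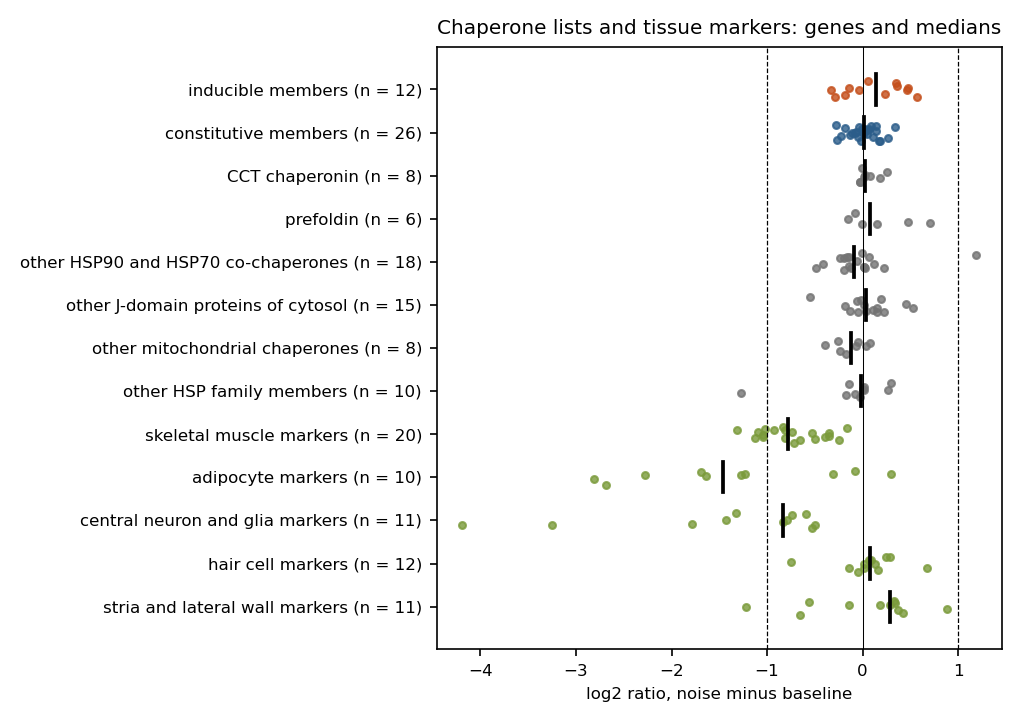
Log2 ratio (noise minus baseline, horizontal axis) of each gene, with the list median as a black bar, for the 2 classes of members, 6 lists of other chaperone genes and 5 marker lists; dashed lines mark 2-fold and vertical scatter within a list has no meaning. The medians of members and chaperone lists lie between -0.12 and 0.14 (those of the 6 lists between 0.11 and 0.30 with spike-in scaling), and those of the muscle, adipocyte and central nervous lists between -1.46 and -0.78.

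**Figure D4:**
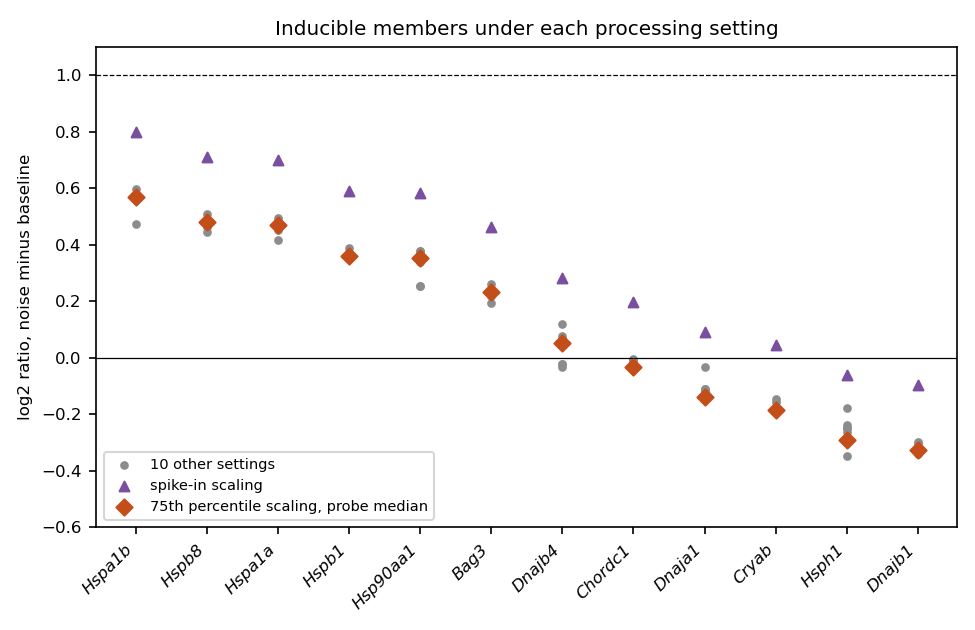
Log2 ratio (noise minus baseline, vertical axis) of the 12 inducible members under the main setting (diamonds), spike-in scaling (triangles) and 10 other settings (grey dots); the dashed line marks 2-fold. Hspa1b lies between 0.47 and 0.80 and Dnajb1 between -0.34 and -0.096, so the order from Hspa1b to Dnajb1 spans 0 under each of these settings.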

How the data were processed

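Spot intensity values in the authors' deposited scanner output were made, per the file headers, with Agilent Feature Extraction 11.5.1.1, which detrends each array without scaling between arrays. The authors' deposited log2 value table equalled log2 of these signals minus 1 constant per array (within 0.01 for 100% of probes) and served as an alternative. Spots marked as outliers were left out (60 on the noise and 58 on the baseline array), spots of a probe were averaged as log2, and the 75th percentile of the non-control probes was taken off within each array. Probes well above background on both arrays counted as measured (41659 of 56604). A size rule of 2-fold stood in for a test, and precision is limited by the number of arrays. Normexp used limma 3.58.1 with an offset of 50, and the gene step was tested on simulated data. Gene names are those of the array design. All 12 inducible members, each family's and list's highest and lowest gene and every gene past 2-fold were to be named; further members are named for completeness. Members, classes and lists were chosen with earlier results of these data known. Exon and untranslated positions of probes are not given, as no mm9 annotation was used here.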

Additional observations from a re-analysis of the deposited data

How the results depend on the processing

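With 11 other settings of background, filter, scaling and probe summary, no member passed 2-fold. Spike-in scaling (7 probes, which differed between arrays by -0.20 to 0.097 before scaling) moved the median of all members to 0.25, of HSP70 genes to 0.34, HSP110 0.24, HSP90 0.40, small heat shock proteins 0.22, mitochondrial chaperonins 0.25, HSP40 0.28, BAG factors 0.28, HSP90 co-chaperones 0.19 and heat shock factors 0.052. It moved the list medians to 0.25 (CCT), 0.30 (prefoldin), 0.14 (further co-chaperones), 0.26 (J-domain), 0.11 (mitochondrial) and 0.22 (remaining family members), with the median of all genes at 0.22. The inducible minus constitutive difference was 0.033 with the broader class and -0.0019 without Hspa1a and Hspa1b (or without any other 2 inducible members above their class median), and lay between 0.082 and 0.21 under the other 12 settings. With median scaling 1 member, Hspa1b, passed 1.5-fold, and with the brightest probe 1, Hspa9. Over all genes, 162 were at least 2-fold higher and 332 lower (365 and 180 with spike-in scaling, 56 and 74 with normexp, 639 and 1278 when dim probes were kept, and 192 lower with the stricter filter). The cause of these shifts was not tested. No paired analysis was possible because the design holds 1 array per condition, and no replicate could be left out. Ratios of dim probes, such as those of Hspa1l and Hspb7, are limited by signal over background.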

Other observations

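Some members had probes that disagreed by more than the SD between probes, and these were noticed after the values were seen. The Dnajb4 probe at 0.79 lies on chromosome 3 from 151856401 to 151856460 (mm9), with levels of 0.76 after noise and 0.44 at baseline, while the brightest Dnajb4 probe, on chromosome 3 from 151847247 to 151847306, was at -0.020. The array design names different transcripts for them, both under Dnajb4. For Hspa9 the probe at 0.59 had levels of 8.44 and 5.60 and the other levels of 2.79 and 3.48. Of the 21 members with more than 1 measured probe, 6 (Hsp90aa1, Hsph1, Dnaja1, Dnajb2, Chordc1 and Stip1) had all probes in 1 direction.

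Neighbouring members did not have like ratios in each case. Hspd1 and Hspe1, which overlap in RefSeq, were at 0.013 and 0.024, and Hspa1a and Hspa1b, separated by 10120 bases, at 0.47 and 0.57. Cryab and Hspb2, which also overlap, were at -0.18 and -0.064. Hspa1a and Hspa1l, read in opposite directions from starts 546 bases apart, were at 0.47 and 0.052, and the dim Hspa1l probe had a scanner error of 0.34.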
